A study of Homo sapiens with 4 samples.

Results

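The genes of the translation initiation factors were described across 4 arrays of the DU145 line, cells of a castration-resistant human prostate cancer. The members were the probe sets whose gene symbol in the platform annotation begins with EIF followed by a digit from 1 to 6, without the eIF2 kinase genes EIF2AK1 to EIF2AK4, pseudogenes and genes on the Y chromosome. Of 49 probe sets matched by symbol, 4 kinase genes and 1 gene on the Y chromosome were left out, which gave 44 genes with 1 probe set each among 17687 named genes. The cells were treated for 48 h with No.10-3 at 5 µM, 0.5 µM C-30, 2 µM C-30 or vehicle, and the series title calls the compounds inhibitors of PSF, the nuclear RNA-binding protein encoded by SFPQ. Each condition has 1 array, and no label says how many cultures stand behind it. Differences therefore carry neither error nor p-value, and every statement describes these 4 arrays. RNA came from whole cultures, so fewer cells of a kind and less RNA per cell cannot be told apart. EIF4A1, EIF4A2, EIF4G2 and EIF4G3 were not analysed here.

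Translation initiation brings the small ribosomal subunit, the initiator methionyl-tRNA and an mRNA together at a start codon. eIF2 carries the tRNA and is recharged with GTP by eIF2B, eIF3 binds the small subunit and holds the complex together, the eIF4 group reads the cap and unwinds the leader of the mRNA, and eIF1, eIF1A and eIF5 set the choice of start codon before eIF5B joins the large subunit. In tumour cells this machinery is known as an end point of MYC and mTOR signalling, and phosphorylation of eIF2 is the central switch of the integrated stress response.

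Signals are log2 values from RMA, a method that corrects background, normalizes the arrays and summarises the probes of each probe set. A gene entered a comparison when the higher of its 2 signals was at least 5.56, the median signal over named probe sets and arrays, and it was called past 2-fold where the log2 difference reached 1 in either direction. Of the 44 genes, 42 passed this floor in each comparison, and EIF5A2 and EIF5AL1 did not. The background level, taken as the 95th percentile of negative controls, lay between 7.06 and 7.32 on the 4 arrays, and 37 of the 44 genes were above it on every array. EIF1AX, EIF4E1B, EIF4E3, EIF4ENIF1, EIF5A2 and EIF5AL1 were above it on no array, and EIF2B4 was above it on 1. Of the epithelial markers, KRT8, KRT18, KRT19 and EPCAM were above the background level on every array and CDH1 was on none. The measured luminal prostate and androgen response markers KLK3, KLK2 and TMPRSS2 were above it on none, and neither were the endothelial markers PECAM1, CDH5 and VWF. COL1A2 was above it on 1 array and the other 3 fibroblast markers on none, whereas the macrophage marker CD68 was above it on all 4 arrays, and the lymphocyte markers CD3E and CD79A and the leukocyte marker PTPRC on none. Markers also differed between arrays. CD68 had 9.50 with No.10-3, 8.55 with 0.5 µM C-30 and 8.79 with 2 µM C-30, against 8.43 with vehicle, which is past 2-fold with No.10-3 (1.08). On the No.10-3 array CD3E and CD79A went the other way past 2-fold, at -1.17 and -1.14, and PTPRC differed by -0.10. The epithelial markers past the floor had a median difference of 0.66 with No.10-3 (4 of 4 above vehicle), 0.30 with 0.5 µM C-30 (4 of 5) and -0.56 with 2 µM C-30 (1 of 4). Summed log2 signals were 50.0, 48.6 and 45.4 on these arrays, against 47.2 with vehicle, for the 5 epithelial markers, and 22.9, 23.5 and 25.02, against 24.2 with vehicle, for the 4 leukocyte markers. The part of these markers in the differences of the initiation factor genes was not tested. Between 2 arrays the differences of 63 ERCC spike probe sets had a robust SD of 0.13 for No.10-3 against vehicle, 0.17 and 0.27 for 0.5 and 2 µM C-30 against vehicle, and 0.15 between the C-30 doses. The median differences of these probe sets were -0.16, -0.04, -0.06 and -0.05 in the same order. Their signals were not set against the background level, so this spread need not hold for expressed genes.

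As a group, the initiation factor genes passed 2-fold about as often as other genes. With No.10-3, EIF3E was the only gene of the group past 2-fold, so that 1 of 42 (2.38%) was higher and 0 were lower, beside 4.36% higher and 1.32% lower among 9219 genes past the floor. With 0.5 µM C-30, EIF3E and EIF2S2 were higher (4.76%) and EIF4ENIF1 was lower (2.38%), beside 3.4% and 2.77% of 9267 genes. With 2 µM C-30, EIF3E, EIF2S2 and EIF5 were higher (7.14%) and EIF2D was lower (2.38%), beside 4.67% and 6.15% of 9319 genes. Between 2 µM C-30 and 0.5 µM C-30, 0 of 42 passed 2-fold either way, beside 1.39% higher and 2.18% lower among 9282 genes.

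The medians of the 42 genes were likewise close to 0. The median log2 difference from vehicle was 0.01 with No.10-3, where all genes past the floor had 0.05. It was -0.0005 with 0.5 µM C-30, where all genes had -0.04, and 0.03 with 2 µM C-30, where all genes had -0.06. Between the C-30 doses the median was -0.05 for the initiation factor genes and -0.03 for all genes. Centring the arrays on the median of expressed genes moved the median of all genes by -0.10 with No.10-3 and brought that of the initiation factor genes to -0.094. In the counts over all genes it left 59.9% of the No.10-3 calls on the higher side, against 76.7% without it, and 54.8% of the C-30 2 µM calls, against 43.2%. A total of 39 of the 44 genes, EIF5A2 and EIF5AL1 below the floor among them, stayed within 2-fold of vehicle on all 3 treated arrays. No share over all genes stands beside this count.

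**Figure D1:**
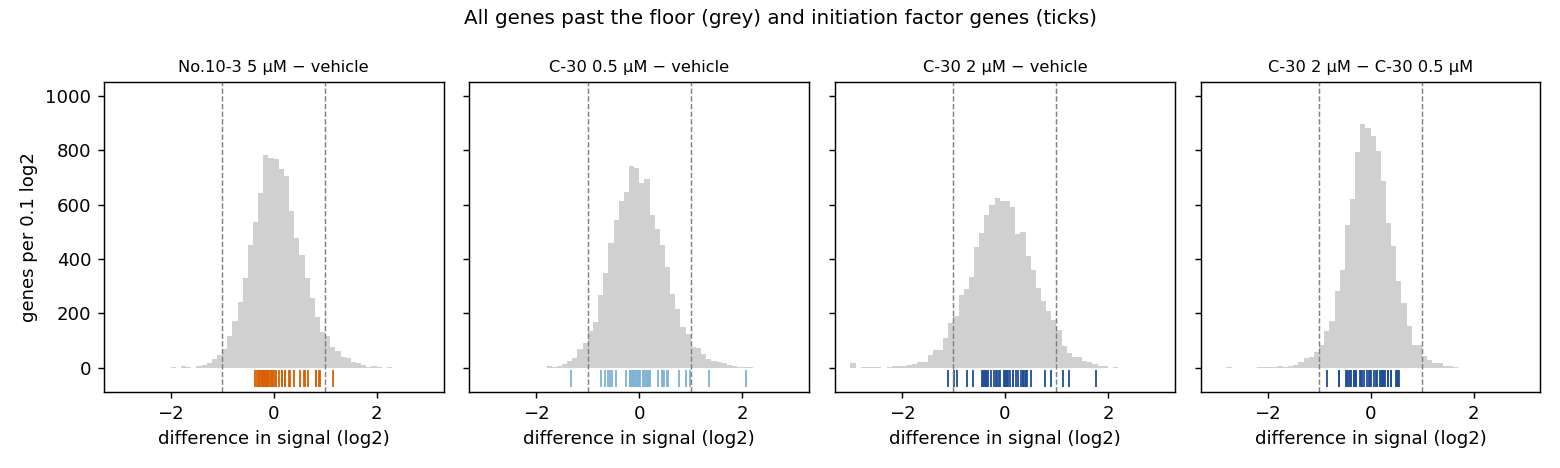
Histograms of the log2 difference in signal over all genes past the floor (grey, in bins of 0.1, values beyond 3 drawn at 3), with each initiation factor gene as a coloured tick below, for the 4 comparisons named above the panels. Dashed lines mark 2-fold; most ticks lie within the body of the grey distribution, and EIF3E lies in its right tail, farthest to the right of the ticks in the comparisons with vehicle.

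Single genes departed from this picture, and EIF3E stood apart most. EIF3E (chromosome 8, 108201216 to 108248717 in GRCh38.p14) encodes a subunit of eIF3 that belongs to its PCI and MPN subunits. Its signal was 12.32 with No.10-3, 13.22 with 0.5 µM C-30 and 12.94 with 2 µM C-30, against 11.16 with vehicle. All 3 treated arrays were thus above vehicle, both C-30 arrays more than the No.10-3 array, and all 4 signals were well above the background level. The differences were 1.16 (2.23-fold), 2.06 (4.18-fold) and 1.78 (3.43-fold). EIF3E ranked 237 from the highest of 9219 genes with No.10-3, 9 of 9267 with 0.5 µM C-30 and 24 of 9319 with 2 µM C-30. The 3 comparisons share the vehicle array and are not independent of each other.

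The gene of the beta subunit of eIF2 came next. EIF2S2 (chromosome 20, 34088309 to 34112243) had a signal of 10.36 with No.10-3, 10.84 with 0.5 µM C-30 and 10.72 with 2 µM C-30, against 9.48 with vehicle. The differences were 0.88, 1.36 (2.56-fold) and 1.24 (2.36-fold), so both C-30 arrays passed 2-fold and the No.10-3 array did not. The genes of the other subunits stayed within 2-fold of vehicle. EIF2S1, which encodes the alpha subunit whose phosphorylation starts the integrated stress response, had 10.31 with No.10-3, 10.74 with 0.5 µM C-30 and 10.27 with 2 µM C-30, against 10.28 with vehicle. EIF2S3, the gene of the gamma subunit that binds the tRNA and GTP, had 13.18, 13.19 and 12.90 on the same treated arrays, against 13.29 with vehicle. The differences for EIF2S1 were 0.03, 0.46 and -0.01 and those for EIF2S3 were -0.11, -0.10 and -0.39. With 0.5 µM C-30, EIF2S1 was thus on the same side of vehicle as EIF2S2. The small differences do not settle a direction, since EIF2S1 changed sign under other scalings with No.10-3 and 2 µM C-30, and EIF2S3 after lowess correction with 0.5 µM C-30.

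EIF2A and EIF2D share the prefix but are not subunits of eIF2, since each encodes a factor that can deliver tRNA to the ribosome without it. EIF2D (chromosome 1, 206569146 to 206612465) had 9.27 with No.10-3, 9.29 with 0.5 µM C-30 and 8.44 with 2 µM C-30, against 9.55 with vehicle. Its difference was -1.11 (2.15-fold lower) with 2 µM C-30, where it was the only initiation factor gene past 2-fold downwards, and -0.28 and -0.26 with No.10-3 and 0.5 µM C-30. The C-30 array at 2 µM was also below that at 0.5 µM, by a difference of -0.85, the lowest among the 42 genes in that comparison. EIF2A had 8.90 with No.10-3, 8.55 with 0.5 µM C-30 and 9.10 with 2 µM C-30, against 8.59 with vehicle, and did not pass 2-fold.

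The 5 genes of eIF2B, the exchange factor that phosphorylated eIF2 inhibits, did not pass 2-fold on any array. EIF2B3, a gene of the catalytic subcomplex, differed most, with 9.42 with No.10-3, 9.06 with 0.5 µM C-30 and 9.30 with 2 µM C-30, against 8.53 with vehicle. Its differences of 0.89, 0.54 and 0.78 made it 1 of the 3 initiation factor genes at least 0.5 above vehicle on every treated array, with EIF3E and EIF2S2. That count was not set beside a share over all genes. EIF2B5, which encodes the catalytic subunit itself, went the other way on the C-30 arrays, with 8.08 with No.10-3, 7.17 with 0.5 µM C-30 and 7.51 with 2 µM C-30, against 7.92 with vehicle. Its differences were 0.17, -0.74 and -0.41, and its signal at the lower C-30 dose lay just above the background level of 7.11 on that array.

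The genes of the regulatory subcomplex of eIF2B, which senses the phosphorylated alpha subunit, differed less. EIF2B1 had 9.31 with No.10-3, 9.07 with 0.5 µM C-30 and 9.61 with 2 µM C-30, against 9.21 with vehicle. EIF2B2 had 10.15, 10.27 and 10.55 on those treated arrays in the same order, against 10.20 with vehicle. EIF2B4 had 7.48, 7.11 and 6.92, against 7.25 with vehicle, and was above the background level with No.10-3 alone. Over the 5 genes the median difference was 0.17 with No.10-3, -0.13 with 0.5 µM C-30 and 0.35 with 2 µM C-30. In this order 4, 2 and 3 genes were above vehicle, beside 54.0%, 46.9% and 46.4% of all genes past the floor. The counts for the 5 genes were the same after quantile normalization, lowess correction and centring, which rescale the same values.

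**Figure D2:**
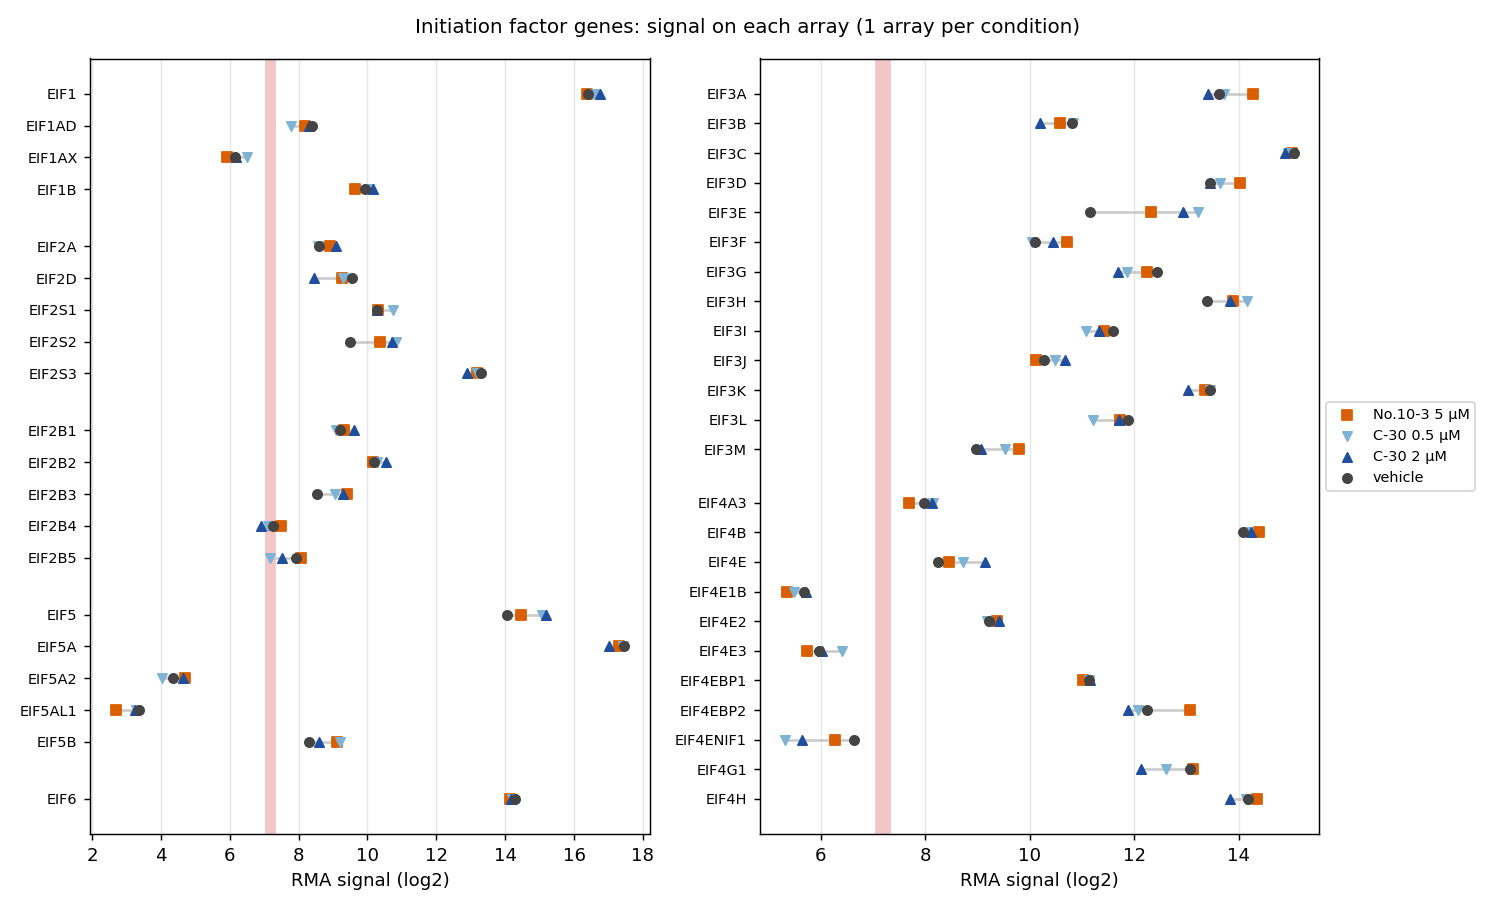
Log2 RMA signal of each initiation factor gene (rows, grouped by factor) on the arrays of No.10-3 at 5 µM (orange squares), 0.5 µM C-30 (light blue triangles), 2 µM C-30 (dark blue triangles) and vehicle (dark grey circles), 1 array each, with the range of the background level, 7.06 to 7.32, shaded. Most rows are short, and EIF3E has the widest spread, from 11.16 with vehicle to 13.22 with 0.5 µM C-30.

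The 13 measured genes of eIF3 went in different directions, and EIF3E alone of them passed 2-fold. EIF3H, which encodes a subunit with an MPN domain, had 13.90 with No.10-3, 14.16 with 0.5 µM C-30 and 13.83 with 2 µM C-30, against 13.39 with vehicle. EIF3M, the gene of a subunit with a PCI domain, had 9.79 with No.10-3, 9.54 with 0.5 µM C-30 and 9.07 with 2 µM C-30, against 8.97 with vehicle. Both were above vehicle on every treated array, EIF3H by 0.50, 0.76 and 0.44 and EIF3M by 0.82, 0.57 and 0.10. EIF3E and EIF3H both lie on chromosome 8, with EIF3H at 116642130 to 116766374.

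The subunits b, g and i form a module that sits apart from the PCI and MPN subunits on the ribosome, and none of their genes passed 2-fold. EIF3G, whose product binds RNA, had 12.24 with No.10-3, 11.87 with 0.5 µM C-30 and 11.69 with 2 µM C-30, against 12.44 with vehicle. EIF3B, the gene of the scaffold of the module, had 10.58, 10.83 and 10.20 on the same treated arrays, against 10.82 with vehicle. EIF3I, which encodes the WD-repeat subunit, had 11.41, 11.07 and 11.33, against 11.60 with vehicle. The median difference of the 3 genes was -0.20 with No.10-3, -0.53 with 0.5 µM C-30 and -0.61 with 2 µM C-30. In the same order 3, 2 and 3 of them were below vehicle, also under the 3 other scalings, which rescale the same values. Among all genes past the floor, 54.0%, 46.9% and 46.4% were above vehicle in these comparisons. EIF3B was level with vehicle at 0.5 µM C-30, with a difference of 0.01, and the division of eIF3 into modules was made after the values had been seen.

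Among the 8 genes of PCI and MPN subunits the median was 0.56 with No.10-3, 0.05 with 0.5 µM C-30 and -0.03 with 2 µM C-30, and the last of these was 0.16 after quantile normalization. EIF3L, whose product pairs with that of EIF3K, had 11.73 with No.10-3, 11.21 with 0.5 µM C-30 and 11.71 with 2 µM C-30, against 11.87 with vehicle. The remaining genes, EIF3A, EIF3C, EIF3D, EIF3F, EIF3J and EIF3K, differed from vehicle by between -0.16 and 0.66 with No.10-3, between -0.10 and 0.20 with 0.5 µM C-30, and between -0.42 and 0.39 with 2 µM C-30. EIF3C has a near-identical copy in the genome, so its signal may hold RNA of both and is uncertain.

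**Figure D3:**
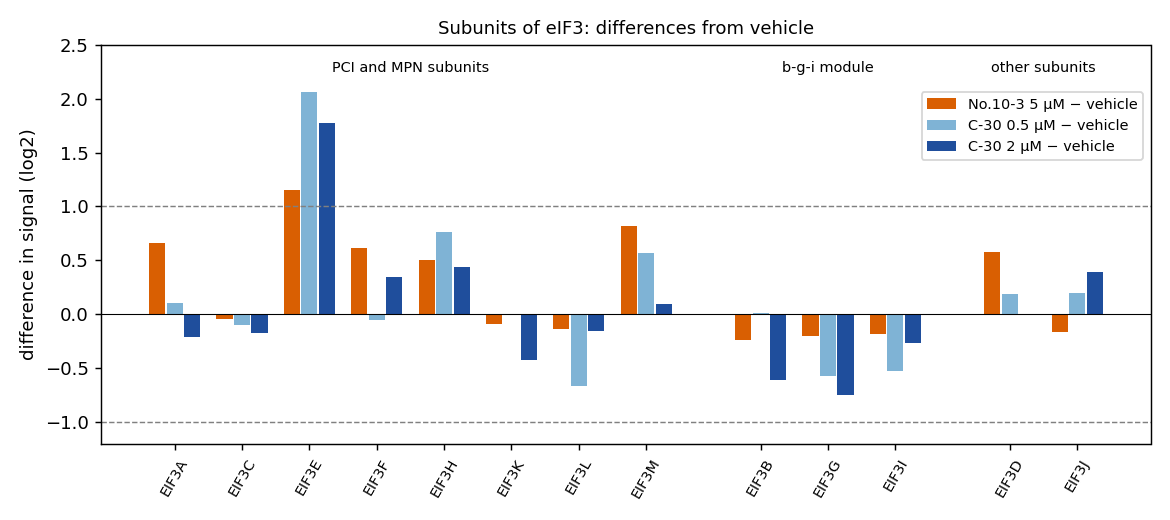
Bars give the log2 difference in signal from vehicle for each measured eIF3 gene with No.10-3 at 5 µM (orange), 0.5 µM C-30 (light blue) and 2 µM C-30 (dark blue), 1 array each, grouped into PCI and MPN subunits, the b-g-i module and the other subunits, with dashed lines at 2-fold. EIF3E reaches 2.06 and crosses the line on all 3 arrays, while the largest bar of the b-g-i module is EIF3G at -0.74.

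The genes of the cap-binding complex stood on opposite sides of vehicle with C-30. EIF4E (chromosome 4, 98879276 to 98929133), which encodes the cap-binding protein, had 8.46 with No.10-3, 8.73 with 0.5 µM C-30 and 9.13 with 2 µM C-30, against 8.25 with vehicle. EIF4G1 (chromosome 3, 184314606 to 184335358), the gene of the scaffold that links the cap-binding protein to eIF3, had 13.11, 12.61 and 12.13 on the same treated arrays, against 13.06 with vehicle. Signals of EIF4E thus increased and those of EIF4G1 decreased in the order vehicle, 0.5 µM and 2 µM of C-30. The differences were 0.21, 0.48 and 0.89 for EIF4E and 0.05, -0.45 and -0.93 for EIF4G1, none of them past 2-fold. Such an order along the C-30 doses was common, since 9 of 42 initiation factor genes (21.4%) increased and 11 (26.2%) decreased in it, beside 19.6% and 25.8% of 9506 genes past the floor.

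To show the sequence ahead of these genes, the 250 bases before the annotated start are given from the RefSeq promoter table (GRCh38.p14), 5′ to 3′ on the strand of the gene. EIF4E (chr4:98929134-98929383, minus strand) and EIF4G1 (chr3:184314356-184314605, plus strand) are shown as the pair that stood farthest apart within the cap-binding complex. EIF5 (chr14:103333987-103334236, plus strand) and EIF2D (chr1:206612466-206612715, minus strand) are shown as genes past 2-fold with 2 µM C-30 in opposite directions. Capitals mark CACGTG, the E-box read by MYC with MAX and by related factors, and CCAAT or its reverse complement ATTGG, the box read by NF-Y.
EIF4E: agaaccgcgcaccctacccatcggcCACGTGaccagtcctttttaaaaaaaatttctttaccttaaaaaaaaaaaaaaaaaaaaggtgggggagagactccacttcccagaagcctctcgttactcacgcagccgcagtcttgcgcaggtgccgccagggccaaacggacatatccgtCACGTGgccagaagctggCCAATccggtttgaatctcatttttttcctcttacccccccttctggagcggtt
EIF4G1: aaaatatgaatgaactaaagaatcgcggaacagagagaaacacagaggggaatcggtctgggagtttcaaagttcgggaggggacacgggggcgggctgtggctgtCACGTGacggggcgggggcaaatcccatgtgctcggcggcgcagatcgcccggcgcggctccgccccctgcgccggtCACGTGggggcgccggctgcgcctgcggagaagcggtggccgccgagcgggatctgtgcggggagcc
EIF5: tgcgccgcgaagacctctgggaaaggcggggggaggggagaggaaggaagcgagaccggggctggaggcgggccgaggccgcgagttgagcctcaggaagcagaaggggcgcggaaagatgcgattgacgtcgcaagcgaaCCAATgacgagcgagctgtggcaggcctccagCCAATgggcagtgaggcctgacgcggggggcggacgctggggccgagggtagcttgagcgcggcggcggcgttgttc
EIF2D: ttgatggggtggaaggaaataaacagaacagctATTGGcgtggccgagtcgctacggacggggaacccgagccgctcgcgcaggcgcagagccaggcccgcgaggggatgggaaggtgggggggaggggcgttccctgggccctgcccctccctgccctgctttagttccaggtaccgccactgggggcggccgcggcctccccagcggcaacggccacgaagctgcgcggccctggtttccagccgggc

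EIF4E, a long-known MYC target, and EIF4G1 each held CACGTG at 2 places, which began 225 and 72 bases before the start in EIF4E and 144 and 67 bases before it in EIF4G1. EIF5 and EIF2D held none, and CCAAT or ATTGG stood at 2 places in EIF5 and at 1 in EIF2D. Of the 44 genes, 35 had a promoter at their annotated outer start in the table, and 10 of these (28.6%) held CACGTG, which reads the same on both strands, beside 7.87% of 13820 protein-coding genes. They were EIF1B, EIF2B3, EIF3F, EIF3K, EIF4A3, EIF4B, EIF4E, EIF4G1, EIF4H and EIF5A2. CCAAT on either strand, which shares no letters with CACGTG in these 4 sequences, was found in 15 of 35 (42.9%), beside 35.2% of the 13820.

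Genes with CACGTG did not differ from vehicle in 1 direction. With 2 µM C-30 the 9 of them past the floor lay between -0.93 (EIF4G1) and 0.89 (EIF4E), with a median of 0.16, and the 24 without it that passed the floor had a median of 0.02. The medians with and without CACGTG were 0.17 and -0.03 with No.10-3, and 0.09 and -0.04 with 0.5 µM C-30. A match of letters is a description of the window and says nothing of binding in these cells.

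The other cap-binding genes were close to vehicle or within background. EIF4E2, which encodes a relative of the cap-binding protein that represses translation, had 9.38 with No.10-3, 9.19 with 0.5 µM C-30 and 9.42 with 2 µM C-30, against 9.21 with vehicle. EIF4E3 had 5.74, 6.40 and 6.03, against 5.97 with vehicle, and EIF4E1B had 5.35, 5.50 and 5.72, against 5.68 with vehicle. Signals of these last genes lay below the background level on every array, so their differences have no reliable order.

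The 4E-BPs are inhibitors that hold eIF4E away from its scaffold until mTORC1 phosphorylates them. EIF4EBP1 had 11.03 with No.10-3, 11.14 with 0.5 µM C-30 and 11.15 with 2 µM C-30, against 11.14 with vehicle, so no treated array was farther from vehicle than 0.11. EIF4EBP2 had 13.07 with No.10-3, 12.07 with 0.5 µM C-30 and 11.87 with 2 µM C-30, against 12.25 with vehicle. No.10-3 was thus above vehicle by 0.83 while the C-30 arrays were below it by differences of -0.18 and -0.38. The compounds were used at different doses, so these values stand side by side and are not a comparison of compounds.

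EIF4ENIF1, which encodes the protein that carries eIF4E into the nucleus, had 6.28 with No.10-3, 5.32 with 0.5 µM C-30 and 5.65 with 2 µM C-30, against 6.64 with vehicle. Its difference of -1.32 with 0.5 µM C-30 passed 2-fold and that of -0.99 at 2 µM did not, but all 4 signals lay below the background level, and a floor at that level removed it from the count. The helicase cofactor genes EIF4B and EIF4H were bright. EIF4B had 14.38 with No.10-3, 14.17 with 0.5 µM C-30 and 14.24 with 2 µM C-30, against 14.09 with vehicle, and EIF4H had 14.35, 14.14 and 13.83, against 14.18 with vehicle. EIF4A3, whose product is an RNA helicase of the exon junction complex and not of the cap complex, had 7.69, 8.15 and 8.12, against 7.97 with vehicle.

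The genes of start codon choice and subunit joining included another gene past 2-fold. EIF5 (chromosome 14, 103334237 to 103345025) encodes the protein that makes eIF2 hydrolyse its GTP at the start codon. It had 14.46 with No.10-3, 15.06 with 0.5 µM C-30 and 15.18 with 2 µM C-30, against 14.06 with vehicle. The differences were 0.40, 0.99 (1.99-fold) and 1.12 (2.17-fold), so 0.5 µM C-30 was just short of 2-fold, and it passed after quantile normalization (1.05), lowess correction (1.11) and centring (1.02). EIF5B, which encodes the factor that joins the large subunit, had 9.12 with No.10-3, 9.21 with 0.5 µM C-30 and 8.60 with 2 µM C-30, against 8.30 with vehicle. It was above vehicle by 0.82, 0.91 and 0.31, and 2 µM C-30 was below 0.5 µM C-30 by a difference of -0.61.

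EIF5A encodes the hypusine-bearing factor that helps elongation past difficult sequences. It had 17.32 with No.10-3, 17.42 with 0.5 µM C-30 and 17.02 with 2 µM C-30, against 17.46 with vehicle, and its difference of -0.44 with the last of these turned positive after quantile normalization. EIF5A2 had 4.71, 4.03 and 4.65 on the treated arrays, against 4.35 with vehicle, and EIF5AL1, a near-identical copy of EIF5A, had 2.69, 3.28 and 3.26, against 3.36 with vehicle. The signal of EIF5A may hold RNA of EIF5AL1, while the signal of EIF5AL1 lay far below that of EIF5A on every array. EIF5A2 and EIF5AL1 lay below the floor and the background level on all 4 arrays.

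The genes of eIF1 and eIF1A, which scan for the start codon, stayed within 2-fold of vehicle. EIF1 had 16.39 with No.10-3, 16.57 with 0.5 µM C-30 and 16.77 with 2 µM C-30, against 16.41 with vehicle. EIF1B, its close relative, had 9.64, 10.06 and 10.17 on those arrays, against 9.92 with vehicle. EIF1AX had 5.92, 6.51 and 6.19, against 6.15 with vehicle, below the background level throughout. EIF1AD, which encodes a protein with an eIF1A-like domain that acts in ribosome maturation, had 8.18, 7.79 and 8.29, against 8.39 with vehicle. Its difference of -0.60 with 0.5 µM C-30 was the largest from vehicle in the EIF1 group. All 4 genes were below vehicle with No.10-3 (median -0.22) and 3 of 4 were above it with each dose of C-30 (median 0.15 at both). Of all genes past the floor, 54.0% were above vehicle with No.10-3, 46.9% with 0.5 µM C-30 and 46.4% with 2 µM C-30. The counts for the 4 genes were the same under the other scalings, which rescale the same values. They include differences near 0, -0.02 for EIF1 with No.10-3 and 0.04 for EIF1AX with 2 µM C-30, and so settle no direction. EIF6, which encodes the factor that keeps the ribosomal subunits apart, had 14.15 with No.10-3, 14.18 with 0.5 µM C-30 and 14.18 with 2 µM C-30, against 14.28 with vehicle.

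**Figure D4:**
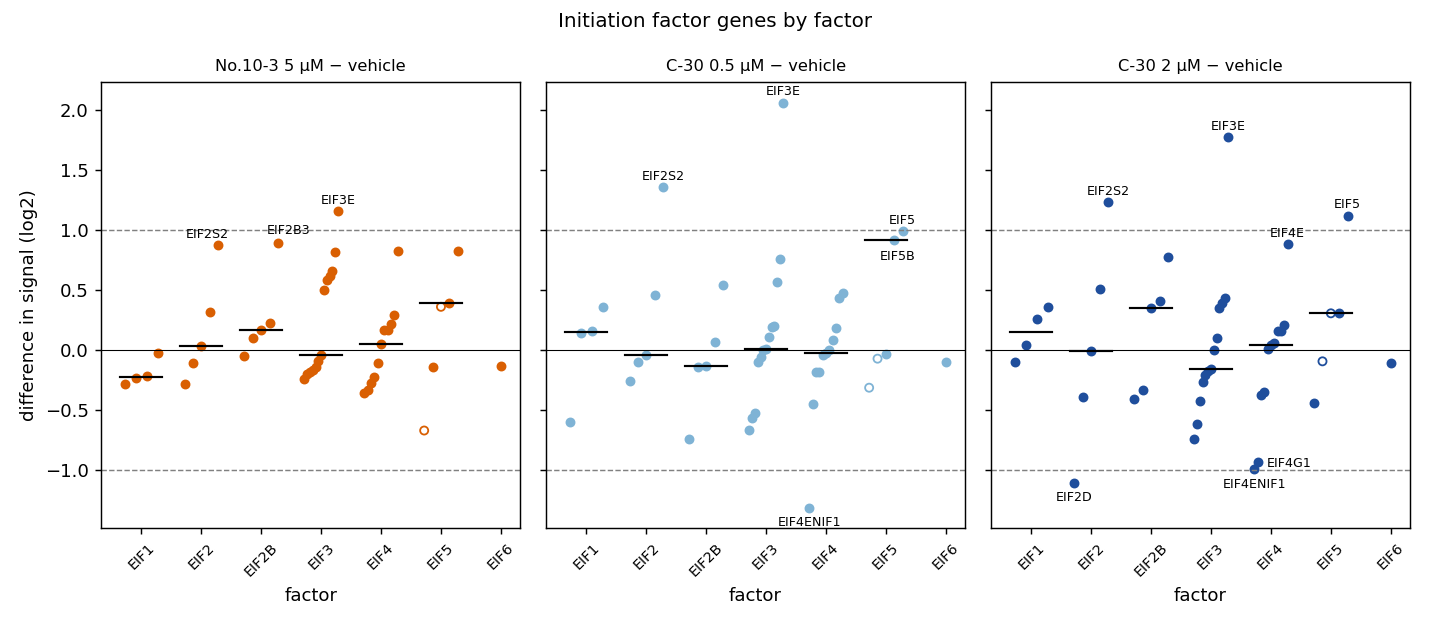
Each point is the log2 difference in signal of an initiation factor gene from vehicle, with 1 panel per treated array and the genes sorted by difference within each factor. Open points are genes below the floor, bars are medians of genes past it, and dashed lines mark 2-fold. The medians of most factors lie near 0, and the labelled genes beyond the lines are EIF3E on all 3 arrays, EIF2S2 with both C-30 doses, EIF4ENIF1 with 0.5 µM C-30, and EIF5 and EIF2D with 2 µM C-30.

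Over the 3 treated arrays, 9 of 42 genes past the floor on some array (21.4%) were above vehicle each time and 11 (26.2%) were below it each time, beside 27.5% and 28.1% of 9630 genes. The members were spread over 18 chromosomes, with 6 on chromosome 3. Genomic span was also examined. Spearman's rho between span and difference over the 42 genes was 0.29 with No.10-3, 0.30 with 0.5 µM C-30 and 0.16 with 2 µM C-30, beside 0.18, 0.10 and 0.07 over all genes past the floor. The genes share arrays and their vehicle values, so these are descriptions across genes. Between 2 µM C-30 and 0.5 µM C-30 rho was -0.18, beside -0.02 over all genes. The 21 longer genes, those over 23298 bases, and the 21 shorter ones had median differences of 0.16 and -0.05 with No.10-3, of 0.09 and -0.04 with 0.5 µM C-30, and of 0.06 and -0.0013 with 2 µM C-30. Between the C-30 doses the order was the reverse, at -0.12 and -0.0077.

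Outside the initiation factors, 39 of 45 listed genes of translation control, elongation and release were measured and 38 passed the floor. With No.10-3, 4 of 38 (10.5%) were higher and 0 lower past 2-fold, beside 4.36% and 1.32% of all genes past the floor. With 0.5 µM C-30, 3 (7.89%) were higher and 0 lower, beside 3.4% and 2.77%. With 2 µM C-30, 1 (2.63%) was higher and 4 (10.5%) were lower, beside 4.67% and 6.15%. The medians were -0.01, -0.25 and 0.17, beside the 0.05, -0.04 and -0.06 of all genes. BZW1, which encodes an eIF5-mimic protein that competes with eIF5 for eIF2, had 11.44 with No.10-3, 11.92 with 0.5 µM C-30 and 12.04 with 2 µM C-30, against 10.33 with vehicle. It was the only listed gene past 2-fold on all 3 treated arrays, at 1.11, 1.59 and 1.71. BZW2, the gene of its relative, had 10.25, 8.67 and 9.36, against 8.90 with vehicle, and passed 2-fold with No.10-3 alone, at 1.34.

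The genes of the eIF2 kinases moved unequally. EIF2AK4, the gene of the amino acid sensor GCN2, had 7.72 with No.10-3, 7.72 with 0.5 µM C-30 and 6.84 with 2 µM C-30, against 6.49 with vehicle. Its signals with 2 µM C-30 and with vehicle lay below the background level. EIF2AK2, which encodes the double-stranded RNA sensor PKR, had 9.65, 9.99 and 9.62, against 8.86 with vehicle. EIF2AK4 passed 2-fold at 1.23 with No.10-3 and 1.23 with 0.5 µM C-30, and EIF2AK2 at 1.13 with 0.5 µM C-30. EIF2AK1 and EIF2AK3, the genes of the haem-regulated kinase and of PERK, and the phosphatase subunit genes PPP1R15A and PPP1R15B differed from vehicle by between -0.69 and 0.60; EIF2AK3 was below the background level on all arrays and PPP1R15A on all but 1. DDX3X, an RNA helicase gene, reached 1.01 with No.10-3 and was under 2-fold with each of the 3 other scalings.

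With 2 µM C-30 the 4 listed genes past 2-fold downwards were TSC2, MLST8, GIGYF2 and EEF1A2. TSC2, which encodes the brake on mTORC1, had 7.20 with No.10-3, 7.20 with 0.5 µM C-30 and 6.29 with 2 µM C-30, against 7.70 with vehicle. MLST8, the gene of an mTOR complex subunit, had 8.69, 8.27 and 8.02, against 9.23 with vehicle. GIGYF2, the gene of a partner of EIF4E2 in repression, had 9.39, 9.05 and 8.19, against 9.53 with vehicle. EEF1A2, an elongation factor gene, had 11.06, 10.39 and 9.90, against 11.30 with vehicle. Their differences with 2 µM C-30 were -1.41, -1.21, -1.34 and -1.41, and the signal of TSC2 lay below the background level on that array. RHEB, which encodes the GTPase that activates mTORC1, was the only listed gene past 2-fold between the C-30 doses, with 11.75 at 2 µM against 10.58 at 0.5 µM, a difference of 1.17. The hypusine enzyme genes DHPS and DOHH were below vehicle on each treated array, DHPS by differences of -0.56, -0.49 and -0.74, and DOHH lay below the background level.

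**Figure D5:**
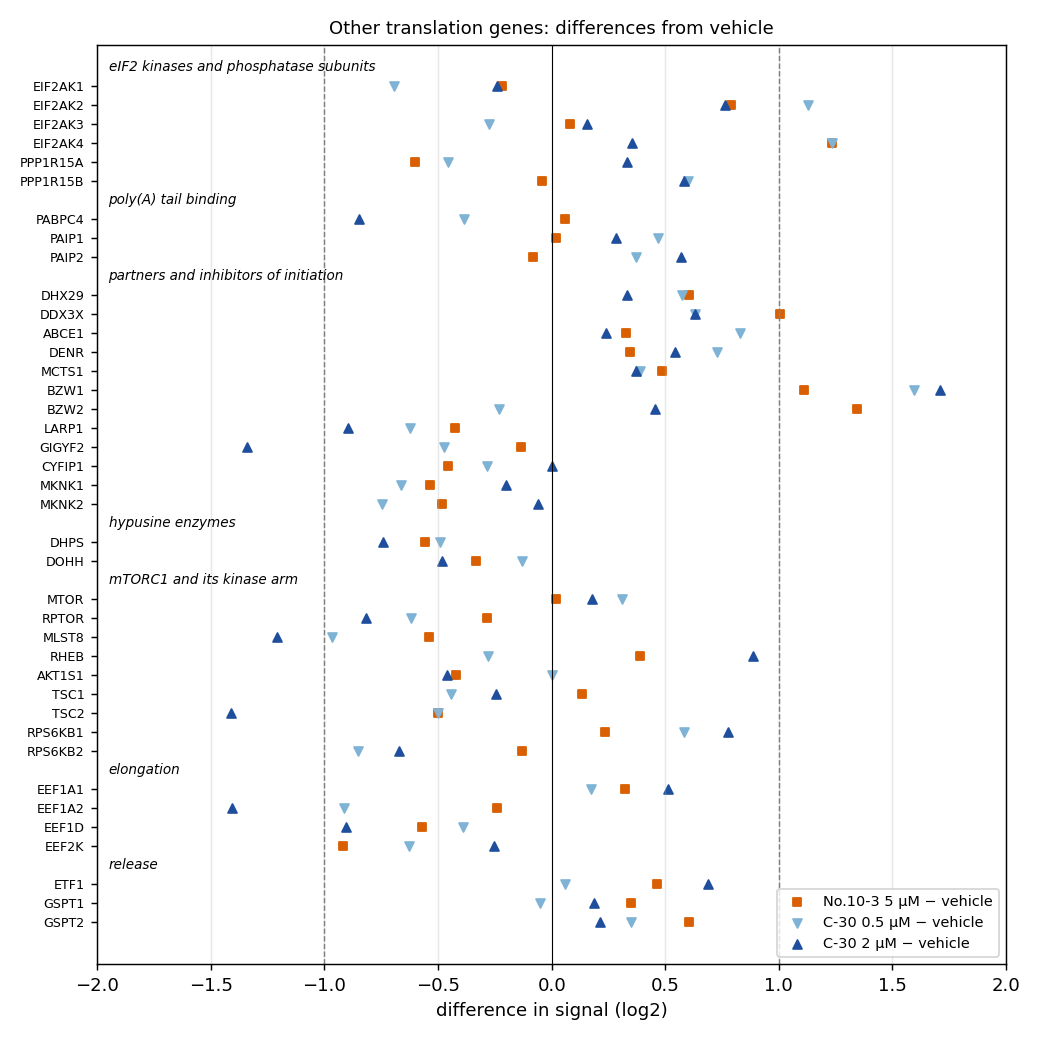
Log2 difference in signal from vehicle of the measured genes of translation control, elongation and release (rows, grouped by role) with No.10-3 at 5 µM (orange squares), 0.5 µM C-30 (light blue triangles) and 2 µM C-30 (dark blue triangles), 1 array each, with dashed lines at 2-fold. BZW1 lies beyond the right line on all 3 arrays, and TSC2, EEF1A2, GIGYF2 and MLST8 lie beyond the left line with 2 µM C-30.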

How the data were processed

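Biotin-labelled total RNA of DU145 cells was hybridised to 1 array per condition, per the labels' protocols. The submitters' processing notes name Affymetrix Expression Console 1.3.0 with RMA. The deposited values are signals per probe set, taken as log2 because RMA returns that scale and the values span it; the genome build of that step is not given in the sources used here. Among 24351 probe sets 17709 had 1 symbol in the platform annotation, 0 had several and 6642 had none. All 17709 were matched by Entrez identifier to RefSeq names of GRCh38.p14, and 20 genes with several probe sets were averaged. The members and lists were chosen with earlier results of these data known. Differences were taken between 2 arrays; 1 array per condition allows no test, and that number sets the precision. The grouping of eIF3 into modules and the motifs were chosen after the values had been seen. Values on all arrays are given for members past 2-fold, for the subunits of eIF2 and eIF2B, for cap-binding, scaffold and 4E-BP genes and for the 2 highest and lowest of each factor, and for list genes past 2-fold or with the 2 largest differences. Alternatives were 1.5-fold, no floor, floors at the 75th percentile (7.90) and at the 95th percentile of the negative controls (7.22), quantile normalization, lowess correction (fraction 0.3), centred arrays, the brightest probe set and the per-sample tables, which differed from the series table by at most 5e-05. The counting rule was also run on simulated arrays with large planted differences. That run does not bear on the reliability of calls from single arrays. Software was Python 3.11.15 with matplotlib 3.10.9, statsmodels 0.14.6, scipy 1.17.1, pandas 2.3.3 and numpy 2.4.6.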

Additional observations from a re-analysis of the deposited data

How the results depend on the processing

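Of 104 alternative values of the counts and medians, 93 kept within 1.5 times the count or 0.1 of the median. The 93 include those of the brightest probe set and the per-sample tables, which could not differ. Each initiation factor gene has 1 probe set, and the per-sample tables nearly equal the series table. The tally is therefore no measure of robustness. A threshold of 1.5-fold gave 8 higher and 0 lower of 42 initiation factor genes with No.10-3, beside 1362 and 769 of 9219 genes. With 0.5 µM C-30 it gave 5 higher and 4 lower, beside 1128 and 1242 of 9267 genes. With 2 µM C-30 it gave 5 higher and 5 lower, beside 1405 and 1720 of 9319 genes. Between 2 µM C-30 and 0.5 µM C-30 it gave 0 higher and 3 lower, beside 732 and 921 of 9282 genes. Where counts rose, this follows from the lower threshold. Floors at the 75th percentile and at the negative controls each left 0 lower genes with 0.5 µM C-30, since EIF4ENIF1 is below both. Quantile normalization gave 2 lower genes with 2 µM C-30, with EIF4ENIF1 added, and a median of 0.14; the cause was not tested. Centred arrays gave a median of -0.094 (No.10-3), since that scaling shifts all genes. Only the scalings could move the difference of an initiation factor gene, since the other alternatives change the threshold or the floor or return nearly the same values. Under the scalings the differences of 19 initiation factor genes named in the text moved by less than the robust SD of all genes. That bound is wide, from 0.41 between the C-30 doses to 0.60 for 2 µM C-30 against vehicle. Small differences of 4 of these genes changed sign under 1 or more scalings (EIF4G1 with No.10-3, EIF3F with 0.5 µM C-30, EIF3D and EIF3L with 2 µM C-30). EIF5A, outside these 19, changed sign as given above, and EIF3E passed 2-fold in every comparison with vehicle under each of the alternatives. No paired analysis was possible because each condition has 1 array, and for the same reason no array could be left out. Signals below the background level limit what can be said of 6 genes.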
